A study of Mus musculus with 23 samples.

Results

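The microglia identity and activation genes are 37 genes chosen by symbol from a fixed list, each required to hold 10 normalized counts or more in 5 or more of 23 libraries. All 37 of the 37 listed genes met it, out of 27178 genes in the table and 16385 that met the same condition and were tested. They fall into 25 homeostatic members and 12 activation members, which microglia raise in disease, injury and lipid clearance. The homeostatic list holds identity genes of resident microglia together with broader macrophage, leukocyte and lysosomal genes, so its counts and medians are not those of identity genes alone. The choice used no difference between groups, although it was made with earlier results of these data known.

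Libraries of polyadenylated RNA came from virally infected orbitofrontal cortex (OFC), a frontal area that weighs the value of outcomes, of male wild-type C57BL/6J mice whose age is given as 8 weeks. On day 0 the mice received, into the OFC, an AAV6 vector in which the promoter of the astrocyte gene Gfap drives either the transcription factor ZBTB7A or GFP alone. A subthreshold social defeat stress, a short exposure to an aggressor, or a control procedure followed on day 21, behavioural tests ran from day 22 to day 27, and tissue was taken on day 28. Stressed mice gave 5 libraries with the ZBTB7A vector (ZBTB7A stress) and 8 with the GFP vector (GFP stress), and unstressed mice gave 5 with each (ZBTB7A control, GFP control), so virus, surgery and behavioural testing were shared by all of them and an unoperated group was not analysed here. A library's name here is its group and its title number. The labels do not say that each library is a separate mouse, so p-values measure the spread between these samples only.

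Microglia are the resident macrophages of the brain. They enter the brain from the embryonic yolk sac, renew themselves there, and depend on signalling through the receptor CSF1R. In the undisturbed cortex they survey their surroundings with purinergic and chemokine receptors such as P2RY12 and CX3CR1, and they prune synapses and clear debris. When they meet dying cells, myelin debris or amyloid, the lipid-sensing receptor TREM2 and its adaptor TYROBP help to switch on a phagocytic, lipid-handling programme that includes Gpnmb, Spp1, Lgals3, Clec7a, Itgax and Cst7.

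Depth was 12.5 to 51.9 M recovered reads per library. Zbtb7a, the mouse gene named for the vector, averaged 3744 ± 173 normalized counts in ZBTB7A stress (SD, n = 5), against 3934 ± 251 in GFP stress (n = 8), and 3716 ± 247 in ZBTB7A control, against 3834 ± 629 in GFP control (n = 5 each). Its log2 fold changes of -0.07 ± 0.08 (SE, limma, adjusted p = 0.651) under stress and -0.03 ± 0.08 (adjusted p = 1.00) without it do not mark the libraries labelled ZBTB7A, and whether reads of the vector are counted under this gene is not given in the sources used here. Group names below are therefore those of the labels. The 3 libraries GFP stress 12, GFP stress 13 and ZBTB7A control 23 held 681 to 991 normalized counts of the neutrophil gene S100a8, against at most 25.3 in every other library. Markers of striatal neurons, the neurons of a region below the OFC, also differed between libraries: the striatal list of 12 genes summed to 37377 to 100377 in ZBTB7A stress, 7214 to 57911 in GFP stress libraries, 15550 to 153749 in ZBTB7A control libraries and 26478 to 73346 in GFP control. These values are in normalized counts, which are read counts divided by one factor per library. In bulk tissue, fewer microglia and less RNA per microglia cannot be told apart.

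The defining markers of microglia were all well above the value condition. Cx3cr1, the receptor for the neuronal chemokine fractalkine, had 1539.7, 1602, 1909.8, 1526 and 1432 in ZBTB7A stress libraries, 1286 to 1894 (median 1358) in GFP stress libraries, 2102, 1848, 1788, 1463 and 1393 in ZBTB7A control libraries and 1403, 1563, 1961, 1346 and 1509.8 in GFP control libraries. P2ry12, the ADP receptor that steers microglial processes to injury, had 684, 826, 753, 784 and 789 in ZBTB7A stress libraries, 630.4 to 802 (median 719) in GFP stress libraries, 708, 779.5, 822, 796 and 799.8 in ZBTB7A control libraries and 917, 697, 746, 610.0 and 658 in GFP control libraries. Tmem119, a membrane protein used to tell microglia from other macrophages, had 546, 521, 603, 606 and 583 in ZBTB7A stress libraries, 447 to 754 (median 562) in GFP stress libraries, 596, 694, 585, 563 and 517 in ZBTB7A control libraries and 479, 472, 684, 529.6 and 406 in GFP control libraries. The groups overlapped for each of these genes, and the highest library held 1.63, 1.503 and 1.85 times the level of the lowest for Cx3cr1, P2ry12 and Tmem119. Sall1, a transcription factor that maintains microglial identity and is also transcribed in other neural cells, had 1220.4, 1216, 1238, 1159 and 1103 in ZBTB7A stress libraries, 879 to 1628 (median 1016) in GFP stress libraries, 1523, 1156, 1036, 933 and 1413 in ZBTB7A control libraries and 977, 1152, 1703, 971 and 1077 in GFP control libraries. Its high libraries, GFP stress 21 and GFP control 10, lay in different groups. Aif1, which encodes the actin-binding protein IBA1, had 129, 130.2, 163, 128 and 116 in ZBTB7A stress libraries, 86 to 137 (median 114) in GFP stress libraries, 185, 116, 119, 133 and 106 in ZBTB7A control libraries and 119, 124, 165, 92 and 121 in GFP control libraries.

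The remaining surveillance and identity genes were similarly even. Csf1r, the growth factor receptor on which microglia depend for survival, averaged 3176 ± 309.6 in ZBTB7A stress libraries, 2872 ± 446 in GFP stress libraries, 3355 ± 307 in ZBTB7A control libraries and 3276 ± 639.8 in GFP control libraries (SD here and in the next sentences, n as above). P2ry13, a purinergic receptor related to P2ry12, averaged 317 ± 26.6 in ZBTB7A stress libraries, 321 ± 37.8 in GFP stress libraries, 331 ± 51.5 in ZBTB7A control libraries and 294 ± 30.7 in GFP control libraries. Siglech, a sialic acid binding lectin, averaged 397 ± 23.9 in ZBTB7A stress libraries, 416 ± 43.4 in GFP stress libraries, 431 ± 36.6 in ZBTB7A control libraries and 438 ± 56.6 in GFP control libraries, and with a 1.49-fold range over the 23 libraries it was the steadiest of the 37. Gpr34, a receptor for lysophosphatidylserine, ranged 1.85-fold over the libraries, the fructose transporter gene Slc2a5 1.82-fold, Olfml3 1.64-fold, Fcrls 1.95-fold, and Selplg, which encodes a ligand of selectins, 2.20-fold. Over all 25 homeostatic members, 11 varied by less than 2-fold, and the ranges of the groups overlapped for every gene of this paragraph.

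Genes of the TREM2 pathway, Fc receptors and lysosomes, listed here with the homeostatic members, varied more. Trem2 had 555, 695, 853, 471 and 403 in ZBTB7A stress libraries, 389.8 to 814 (median 455) in GFP stress libraries, 941, 919, 573, 472 and 362 in ZBTB7A control libraries and 464, 606, 993, 336 and 518 in GFP control libraries. Its high libraries, at 814 to 993, were ZBTB7A stress 17, GFP stress 13, ZBTB7A control 6 and 14, and GFP control 10, so every group held at least 1 of them. Cd68, a lysosomal glycoprotein used to mark phagocytic microglia, had 758, 723, 1010.0, 536 and 417 in ZBTB7A stress libraries, 337 to 946 (median 433) in GFP stress libraries, 1096, 1204, 566, 435 and 459 in ZBTB7A control libraries and 396, 642, 1411, 368 and 619 in GFP control libraries. The same 5 libraries were the highest for Cd68, at 946 to 1411. Tyrobp, the signalling adaptor of TREM2, averaged 589.7 ± 164 in ZBTB7A stress libraries, 513 ± 146 in GFP stress libraries, 598 ± 201 in ZBTB7A control libraries and 552 ± 225 in GFP control libraries. Ctss, the lysosomal protease cathepsin S, averaged 3015 ± 1178 in ZBTB7A stress libraries, 2264 ± 636 in GFP stress libraries, 3117 ± 1038 in ZBTB7A control libraries and 2801 ± 1432 in GFP control libraries.

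Per kilobase of exon, Ctss held the highest mean level of all members, at 2010 normalized counts per kilobase, ahead of Tyrobp at 835, Csf1r at 542 and Cd68 at 514. The lowest mean levels per kilobase were 9.003 for Ptprc, which encodes the leukocyte antigen CD45, 11.3 for Ccl4 and 12.5 for Ch25h. Each length joins all annotated exons of a gene and can exceed that of 1 transcript. It was 18313 bases for Ptprc, 660 for Ccl4 and 1387 for Ch25h, so these ranks depend on the annotation as well as on the counts. Other genes of this set ranged over the 23 libraries 2.81-fold for Fcer1g, a signalling chain of Fc receptors, 2.28-fold for the Fc receptor gene Fcgr3, and 2.30-fold for Itgam, which encodes the complement receptor chain CD11b. The ranges were 3.88-fold for Ptprc, 2.88-fold for the tetraspanin gene Cd53, 2.39-fold for the lysosomal gene Laptm5, 2.66-fold for Ly86, a partner of a toll-like receptor relative, and 2.56-fold for the costimulatory gene Cd86. Cd68 had the widest range of the homeostatic members, at 4.19-fold.

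**Figure D1:**
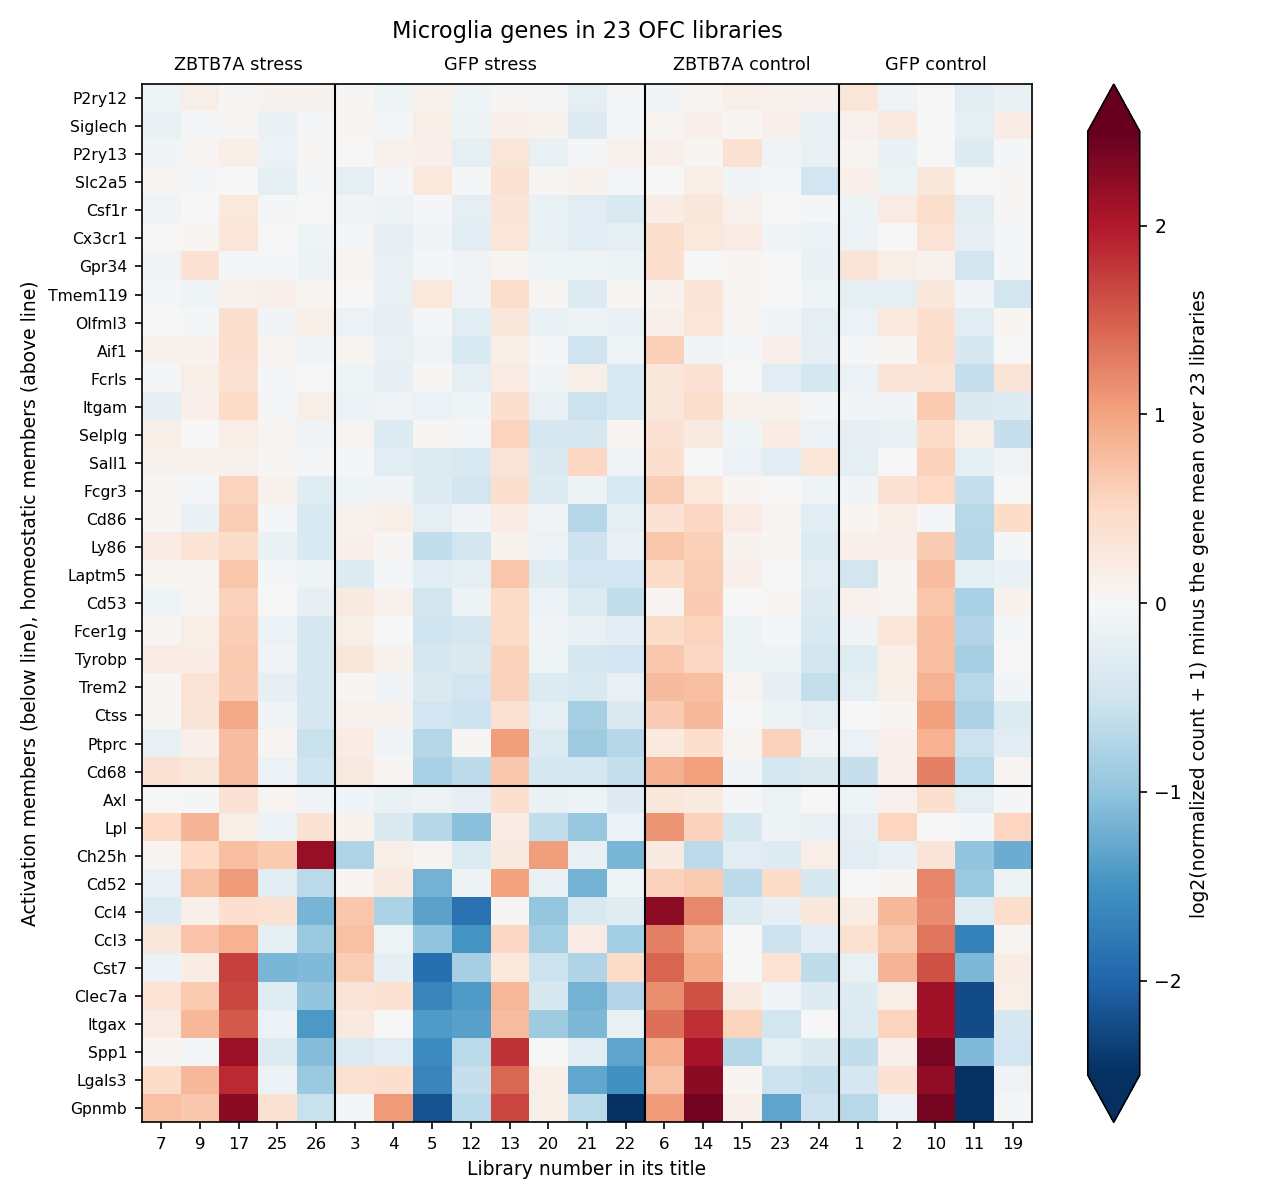
Each cell is log2(normalized count + 1) of 1 gene in 1 library minus the mean of that gene over 23 libraries. Rows are 25 homeostatic members (above the line) and 12 activation members (below it), columns are libraries in 4 groups, and ZBTB7A stress 17, GFP stress 13, ZBTB7A control 6 and 14 and GFP control 10 are red through most activation members while GFP control 11 and GFP stress 5 are blue.

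The activation members differed widely between libraries of the same group. The SD within groups of log2(normalized count + 1) had a median of 0.90 over the 12 activation members, 0.29 over the 25 homeostatic members and 0.19 over all 16385 genes tested. The ratio of the highest to the lowest library had a median of 14.6 over the 12 activation members and of 2.20 over the 25 homeostatic members, and it was above 10 for 8 activation members and for 0 homeostatic ones. Of these 8, Ccl4, Ch25h and Cst7 held as few as 1, 4 and 5 reads in a library, against 25 or more for every homeostatic member. The part of such low reads in the ratios was not tested. Gpnmb, a glycoprotein of lysosome-rich phagocytes and the activation member with the widest range (chosen for full values after they were seen), had 2044, 1981, 5866, 1615 and 833 in ZBTB7A stress libraries, 188 to 3913 (median 987) in GFP stress libraries, 2567, 6573, 1340.0, 495 and 865 in ZBTB7A control libraries and 763, 1109, 6449, 119.8 and 1201 in GFP control libraries. It spanned 54.9-fold, and its highest 3 libraries, ZBTB7A stress 17, ZBTB7A control 14 and GFP control 10, and its lowest library, GFP control 11, left the groups fully interleaved. Lgals3, a galactose-binding lectin recruited to damaged lysosomes, had 192, 244, 509.6, 124 and 71.9 in ZBTB7A stress libraries, 43.4 to 375 (median 124) in GFP stress libraries, 231, 662, 143, 95.7 and 92.3 in ZBTB7A control libraries and 103, 178, 646, 12.4 and 129.8 in GFP control libraries. Spp1, the secreted phosphoprotein osteopontin, which some neurons also make, had 324, 303, 1379, 246 and 147 in ZBTB7A stress libraries, 102 to 1093 (median 253) in GFP stress libraries, 577, 1306, 189, 269 and 243 in ZBTB7A control libraries and 205, 341, 1619, 145 and 223 in GFP control libraries. For Lgals3 and Spp1 as well, ZBTB7A control 14, GFP control 10, ZBTB7A stress 17 and GFP stress 13 were the highest 4 libraries.

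Surface receptors of activated microglia followed the same libraries. Clec7a, the beta-glucan receptor dectin-1, had 135, 166, 338, 85.3 and 52.6 in ZBTB7A stress libraries, 33 to 189 (median 71.7) in GFP stress libraries, 236, 321, 124, 101 and 84.8 in ZBTB7A control libraries and 84.4, 117, 459.7, 21.6 and 119 in GFP control libraries. Itgax, which encodes the integrin chain CD11c, had 88.2, 137, 221, 68.5 and 27.6 in ZBTB7A stress libraries, 27.8 to 131 (median 53.5) in GFP stress libraries, 199, 272, 112, 55.1 and 75.5 in ZBTB7A control libraries and 59.8, 112, 329, 15.5 and 56.4 in GFP control libraries. Both were lowest in GFP control 11 and highest in GFP control 10, so the GFP control group held both extremes. Cst7, an inhibitor of lysosomal proteases, had 31.1, 39.5, 116, 15.1 and 15.6 in ZBTB7A stress libraries, 8.68 to 53.7 (median 26.8) in GFP stress libraries, 96.2, 67.7, 34.2, 43.9 and 21.9 in ZBTB7A control libraries and 30.2, 62.9, 107, 15.5 and 39.5 in GFP control libraries. Cd52, a small surface glycoprotein of leukocytes, had 49.6, 95.6, 120.3, 46.2 and 35.4 in ZBTB7A stress libraries, 24.3 to 115 (median 52.1) in GFP stress libraries, 85.7, 90.3, 35.7, 78.4 and 42.7 in ZBTB7A control libraries and 56, 58.9, 133, 29.4 and 52.2 in GFP control libraries. Axl, a receptor that binds dying cells through GAS6 and is also made by other brain cells, varied only 1.67-fold. It averaged 1705 ± 210.5 in ZBTB7A stress libraries, 1530.4 ± 265 in GFP stress libraries, 1702 ± 221 in ZBTB7A control libraries and 1661 ± 293 in GFP control libraries.

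The genes of lipid handling departed from that order, while the chemokines were high in several of the same libraries. Lpl, the lipoprotein lipase of microglia that some neurons also transcribe, had 633, 806, 494, 402 and 578 in ZBTB7A stress libraries, 217 to 509 (median 321) in GFP stress libraries, 969, 665, 341, 412 and 394 in ZBTB7A control libraries and 389.8, 646, 445, 438 and 653 in GFP control libraries. ZBTB7A control 6 and ZBTB7A stress 9 were highest, and the 4 lowest libraries were all GFP stress libraries (12, 21, 5 and 20). These 4 were also the lowest in striatal level, the mean over 12 striatal genes of log2 values minus each gene's mean, at -2.52 to -2.10. ZBTB7A control 6 and ZBTB7A stress 9 were the highest in it, at 2.08 and 1.60. The part of striatal cells in the Lpl values was not tested. Ch25h, the enzyme that makes 25-hydroxycholesterol, had 15.5, 21.4, 25.7, 24 and 70.4 in ZBTB7A stress libraries, 6.17 to 31.8 (median 14.3) in GFP stress libraries, 17.5, 9.03, 11.9, 11.7 and 16.7 in ZBTB7A control libraries and 12, 12.9, 18.7, 6.96 and 5.64 in GFP control libraries. ZBTB7A stress 26 stood above every other library for Ch25h, at 70.4 normalized counts against 5.64 to 31.8 elsewhere. These rest on 135 reads against 4 to 50, at unequal depth. ZBTB7A stress 26 was the lowest of its group for Gpnmb. Ccl3, a chemokine that attracts leukocytes, had 18, 24.7, 27.5, 12.4 and 7.3 in ZBTB7A stress libraries, 4.57 to 25.2 (median 10.6) in GFP stress libraries, 36.7, 27.1, 14.9, 10.01 and 12.1 in ZBTB7A control libraries and 19.5, 24.2, 38.6, 3.87 and 15.5 in GFP control libraries. Ccl4, a related chemokine, had 4.51, 6.59, 8.26, 8 and 2.08 in ZBTB7A stress libraries, 0.914 to 10.1 (median 3.65) in GFP stress libraries, 31.5, 15.05, 4.47, 5.01 and 7.5 in ZBTB7A control libraries and 6.93, 11.3, 14.7, 4.64 and 8.47 in GFP control libraries. Ccl3 was highest in GFP control 10, ZBTB7A control 6, ZBTB7A stress 17 and ZBTB7A control 14 and lowest in GFP control 11. Ccl4 was highest in ZBTB7A control 6, ZBTB7A control 14 and GFP control 10. Ccl4 rested on 1 to 18 reads per library and reached 10 normalized counts in only 5 libraries, and Ccl3 rested on 4 to 36 reads.

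**Figure D2:**
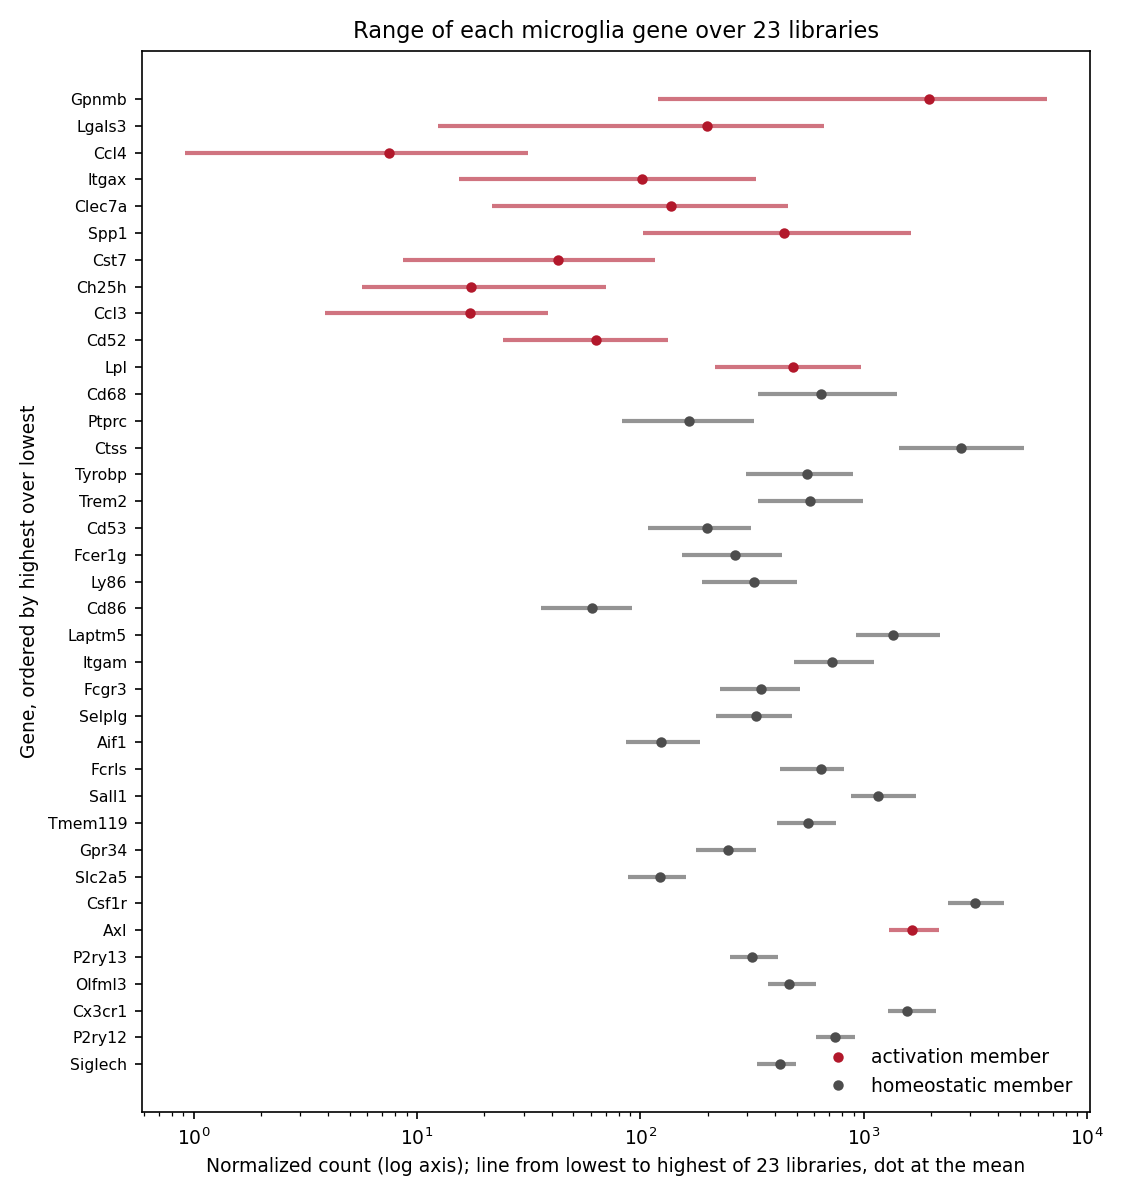
Lines run from the lowest to the highest of 23 libraries on a log axis of normalized counts, with a dot at the mean, and genes are ordered by the ratio of the highest to the lowest library. Activation members (red) take the top 11 places and only Axl lies among the homeostatic members (grey).

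Trem2 and Cd68 were highest in libraries also high in Gpnmb and Spp1, while P2ry12 was highest in others. No correlation was computed for Cd68 or Spp1. The promoter windows of these 5 genes are shown, from 250 bases before to 50 after the start, as given by RefSeq on the build GRCm38.p6. Capitals mark GAGGAA or its reverse complement, the core of sites bound by PU.1, a factor needed by all macrophages, the longer PU.1 site GAGGAAGT, which contains GAGGAA, and TGACTCA, a site of AP-1, a factor of activated cells, whose reverse complement is TGAGTCA; both strands were searched. Gpnmb lies at chr6:49036268-49036567, plus strand, Spp1 at chr5:104434861-104435160, plus strand, Trem2 at chr17:48346151-48346450, plus strand, Cd68 at chr11:69666121-69666420, minus strand and P2ry12 at chr3:59262936-59263235, minus strand.
Gpnmb: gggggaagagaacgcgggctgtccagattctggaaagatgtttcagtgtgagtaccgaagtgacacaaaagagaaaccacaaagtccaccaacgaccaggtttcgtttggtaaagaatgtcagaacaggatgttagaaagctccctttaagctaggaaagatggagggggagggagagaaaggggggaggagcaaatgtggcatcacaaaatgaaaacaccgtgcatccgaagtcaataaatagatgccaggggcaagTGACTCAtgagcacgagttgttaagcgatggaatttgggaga
Spp1: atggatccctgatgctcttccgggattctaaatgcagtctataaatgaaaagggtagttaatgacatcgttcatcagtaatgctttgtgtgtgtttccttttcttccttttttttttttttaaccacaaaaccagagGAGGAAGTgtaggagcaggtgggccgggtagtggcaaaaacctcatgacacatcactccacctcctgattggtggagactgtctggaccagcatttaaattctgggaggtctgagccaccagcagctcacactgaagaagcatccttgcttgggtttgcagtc
Trem2: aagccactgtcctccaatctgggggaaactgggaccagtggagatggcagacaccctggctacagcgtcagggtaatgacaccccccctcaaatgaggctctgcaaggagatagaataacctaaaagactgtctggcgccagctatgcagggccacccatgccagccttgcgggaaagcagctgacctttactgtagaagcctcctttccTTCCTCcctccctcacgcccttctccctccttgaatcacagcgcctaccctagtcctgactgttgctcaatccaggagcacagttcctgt
Cd68: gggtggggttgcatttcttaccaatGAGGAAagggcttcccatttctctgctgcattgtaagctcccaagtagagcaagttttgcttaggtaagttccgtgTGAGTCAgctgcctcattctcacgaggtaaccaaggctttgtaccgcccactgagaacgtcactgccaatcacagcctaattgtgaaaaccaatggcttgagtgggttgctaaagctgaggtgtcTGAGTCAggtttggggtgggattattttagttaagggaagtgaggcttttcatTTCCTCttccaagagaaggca
P2ry12: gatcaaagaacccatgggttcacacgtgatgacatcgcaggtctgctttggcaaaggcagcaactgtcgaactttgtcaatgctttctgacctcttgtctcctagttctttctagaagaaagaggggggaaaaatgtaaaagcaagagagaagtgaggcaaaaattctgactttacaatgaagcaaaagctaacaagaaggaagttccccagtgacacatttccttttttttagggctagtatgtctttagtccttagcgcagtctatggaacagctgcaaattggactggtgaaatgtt
A window was printed or searched for 28 of the 37 members, and a gene with several windows counted once. TGACTCA stood in 2 of 9 activation members (Gpnmb and Itgax) and 1 of 19 homeostatic members (Cd68), against 5.95% of all genes with a window. GAGGAA stood in 4 of 9 activation and 12 of 19 homeostatic members, against 31.2% of all genes, and GAGGAAGT in 1 of 9 (Spp1) and 2 of 19 (Ctss and Cd53), against 3.69%. The P2ry12 window held none of these motifs, nor did a second RefSeq window of Spp1 at chr5:104435942-104436241, plus strand, and a match is a description of the sequence only.

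Libraries high in activation members were also high in the TREM2 pathway genes. Over the 23 libraries, Trem2 and Tyrobp were correlated at Pearson's r = 0.947 and Spearman's rho = 0.898 (adjusted permutation p = 1.75e-05 and 3.5e-05), with r = 0.926 without the 2 libraries farthest from the Trem2 median. Trem2 and Gpnmb reached r = 0.808 and rho = 0.779 (adjusted permutation p = 1.75e-05 and 7e-05; r = 0.789 without 2 libraries). P2ry12 and Gpnmb gave r = 0.18 and rho = 0.01 (adjusted permutation p = 0.413 and 0.976; r = 0.03 without 2 libraries). Lgals3 and Gpnmb gave r = 0.958 and rho = 0.934 (adjusted permutation p = 1.75e-05 and 3.5e-05; r = 0.939 without 2 libraries). These are 4 of 14 pairs tested on log2 values, all pairs were chosen after the data were seen, p-values were adjusted over the 14, and 1e-05 is the smallest unadjusted p that 100000 permutations can give. After each group's mean was removed, the r of these 4 pairs was 0.949, 0.811, 0.07 and 0.957. P2ry12 does not stand for all homeostatic members. GFP control 10 was among the 5 highest libraries for 21 of 25 homeostatic members and 10 of 12 activation members. GFP control 11 was among the 5 lowest for 20 and 10 of them. Cx3cr1 was highest in ZBTB7A control 6, GFP control 10, ZBTB7A stress 17, GFP stress 13 and ZBTB7A control 14.

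Genes of related function gave a further 9 of the 14 pairs. The Fc receptor chain Fcer1g and Fcgr3 gave r = 0.905 and rho = 0.836 (adjusted permutation p = 1.75e-05 and 3.5e-05; 0.874 without 2 libraries), and Itgam with its integrin partner Itgb2 gave r = 0.929 and rho = 0.832 (adjusted permutation p = 1.75e-05 and 3.5e-05; 0.889). Ccl3 and Ccl4 gave r = 0.806 and rho = 0.78 (adjusted permutation p = 3.11e-05 and 4e-05; 0.828), and P2ry12 and P2ry13 gave r = 0.439 and rho = 0.38 (adjusted permutation p = 0.0506 and 0.0866; 0.312). Csf1r was correlated with its ligand gene Csf1 at r = 0.808 and rho = 0.764 (adjusted permutation p = 1.75e-05 and 7.78e-05; 0.787). With its other ligand gene, the neuronal Il34, it gave r = -0.353 and rho = -0.394 (adjusted permutation p = 0.107 and 0.0818; -0.282). Cx3cr1 and its neuronal ligand gene Cx3cl1 gave r = -0.36 and rho = -0.423 (adjusted permutation p = 0.107 and 0.0626; -0.235). Axl and Pros1 gave r = 0.804 and rho = 0.823 (adjusted permutation p = 1.75e-05 and 4e-05, r = 0.83 without 2 libraries). Axl and its ligand gene Gas6 gave r = 0.39 and rho = 0.226 (adjusted permutation p = 0.0837 and 0.321, r = 0.111 without 2 libraries). The Axl and Gas6 value without 2 libraries is lower, and with group means removed it is 0.538.

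Genes of reactive astrocytes were high in the same libraries as the activation members. Gfap, the filament gene of reactive astrocytes, and Gpnmb were correlated at r = 0.82 and rho = 0.848 (adjusted permutation p = 1.75e-05 and 4e-05; r = 0.85 without 2 libraries, 0.837 with group means removed). Gfap had 11733, 14078, 19524, 7817 and 6598 in ZBTB7A stress libraries, 2839.7 to 11345 (median 5735) in GFP stress libraries, 18044, 16701, 11154, 5208 and 8427 in ZBTB7A control libraries and 7059.9, 11271, 26388, 4329.6 and 8411 in GFP control libraries. Lcn2, a secreted protein of reactive astrocytes, was highest in ZBTB7A stress 17, ZBTB7A control 14 and GFP control 10, which held 1761, 1308 and 2047 normalized counts. The 13 genes of a reactive astrocyte list summed to 9945 to 31293 in ZBTB7A stress, 5378 to 16105 in GFP stress libraries, 8256 to 26203 in ZBTB7A control libraries and 6150 to 41184 in GFP control, and their part in the microglial values was not tested. GFP control 10, a library with neither ZBTB7A nor stress by its label, had the highest Gfap and the second highest Gpnmb of all 23.

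**Figure D3:**
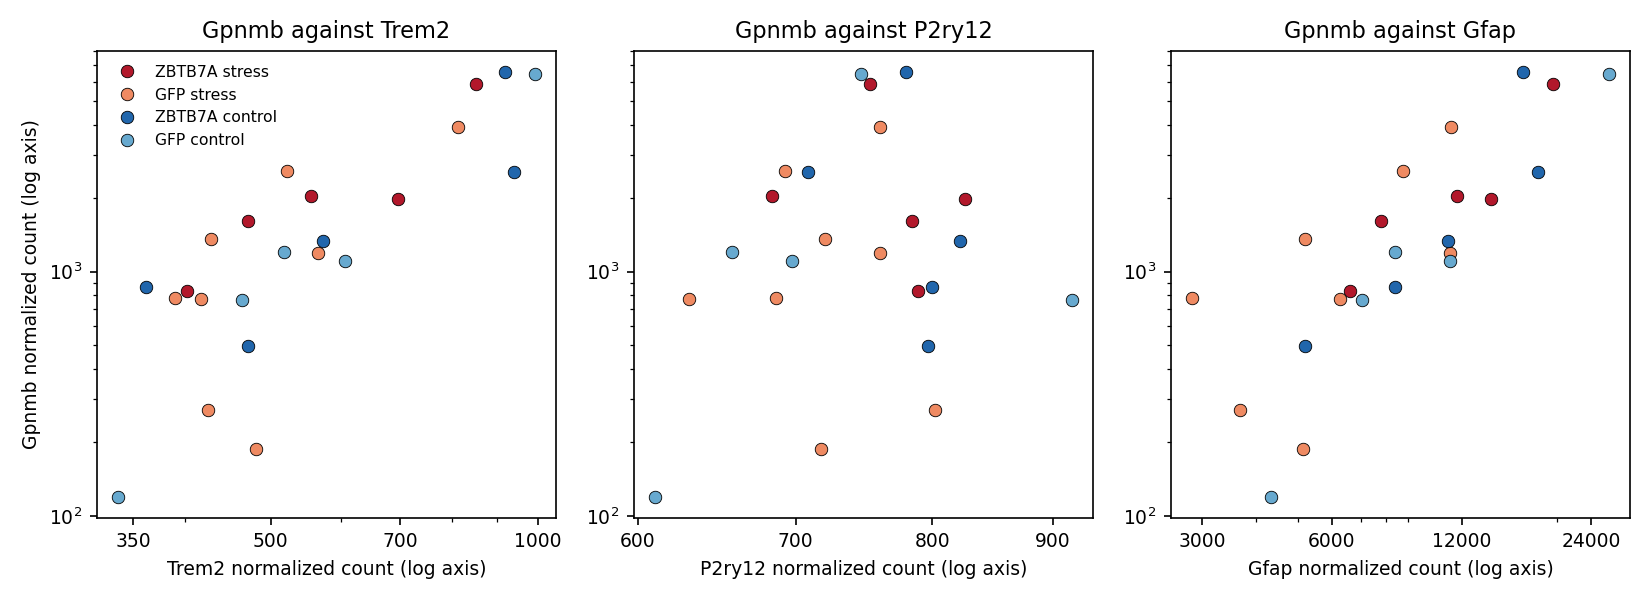
Each dot is 1 of 23 libraries, coloured by group, with Gpnmb on the vertical log axis and Trem2, P2ry12 or Gfap on the horizontal log axis, all in normalized counts. Gpnmb climbs with Trem2 (r = 0.808) and Gfap (r = 0.82) and not with P2ry12 (r = 0.18), and all 4 groups are spread along the range. P2ry12 does not stand for all homeostatic members.

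Markers of other myeloid and blood cells were also measured. Mrc1, the mannose receptor of macrophages at the brain's borders, had 70.7 to 115 normalized counts in ZBTB7A stress, 52.6 to 132 in GFP stress libraries, 45.5 to 165 in ZBTB7A control libraries and 53.3 to 151 in GFP control, and the 11 genes of the border macrophage list were all detected and summed to 840.4 to 1314, 677 to 1329, 846 to 1139 and 677 to 1218 in the same 4 groups. The monocyte receptor gene Ccr2 was at most 59.2 normalized counts, in GFP stress 13. The T cell gene Cd3e was at or below 10.53 in every library and at 0 in ZBTB7A stress 9 and GFP stress 3, 4 and 5. Haemoglobin Hbb-bs was highest in GFP stress 13 at 1046, in ZBTB7A control 23 at 951 and in GFP stress 12 at 697, the 3 libraries high in S100a8, and at most 302 elsewhere. The 12 genes of the monocyte and neutrophil list summed to 32.6 to 185 in ZBTB7A stress, 21.6 to 6207 in GFP stress libraries, 38.5 to 3555 in ZBTB7A control libraries and 36.3 to 209 in GFP control, with none of them at 0 in all libraries. Of these 3 libraries GFP stress 13 was high in most activation members, GFP stress 12 was low, and ZBTB7A control 23 was near the middle.

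The first comparison asks whether microglia genes respond to ZBTB7A in stressed mice, as far as the labels define the vector. In ZBTB7A stress against GFP stress, all 12 activation members and 22 of 25 homeostatic members had a log2 fold change above 0, where 51.4% of all genes tested did. Their median log2 fold changes were 0.60 and 0.17, beside 0.01 over all genes. In limma, 0 of the 37 members and 0.0% of the 16385 genes passed an adjusted p of 0.05; 2 members had an unadjusted p under 0.05, against 16.1% of all genes, a larger share than among the members. edgeR and DESeq2 also called 0 members in this and every other comparison. Lpl averaged 583 ± 152 normalized counts in ZBTB7A stress, against 345 ± 110 in GFP stress (SD, n = 5 and 8), and the groups overlapped. Its log2 fold change was 0.78 ± 0.25 (SE, unadjusted p = 0.00484, adjusted p = 0.193, limma), a 1.72-fold difference with a 95% interval of 1.20 to 2.46. Ch25h averaged 31.4 ± 22.1 in ZBTB7A stress, against 15.02 ± 7.82 in GFP stress, with overlapping groups and a log2 fold change of 0.95 ± 0.35 (unadjusted p = 0.0133, adjusted p = 0.234), or 0.61 without ZBTB7A stress 26.

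Among the 37 members, the largest fold change of this comparison was that of Gpnmb, at 2.18-fold with a 95% interval of 0.673 to 7.04 (named after its values were seen). P2ry12 differed 1.06-fold, with an interval of 0.954 to 1.19. The striatal list moved with this comparison: all 12 of its genes were higher at an unadjusted p under 0.05, with a median log2 fold change of 1.82. Of other cell types, all 13 reactive astrocyte genes (median 0.68, 5 at an unadjusted p under 0.05), all 10 oligodendrocyte genes (0.65, 2) and 9 of 11 choroid plexus and ependymal genes (1.02, 5) were above 0. All 11 excitatory neuron genes were below it (-0.47, 7). Of border macrophage genes 9 of 11 were above 0 (0.06, 1), and of the monocyte and neutrophil genes tested 1 of 6 was (-1.41, 0). The part of these cells in the microglial values was not tested. With the striatal level as a covariate the medians became 0.15 for activation members and 0.08 for homeostatic members, and the log2 fold change of Lpl became 0.10, while that of Ch25h became 1.24. Without 5 libraries far from the others in striatal level (GFP stress 5, 12, 20 and 21 and ZBTB7A control 6) the medians were 0.09 and 0.07. No ZBTB7A stress library was left out there, so only the GFP stress side of this comparison became smaller. Without ZBTB7A stress 17 they were 0.36 and 0.10. Within the 3 successive runs of title numbers the activation median was 0.68, 1.40 and 0.14, that of homeostatic members 0.15, 0.40 and 0.17, and that of Lpl 0.99, 0.57 and 0.67. These runs held 2, 1 and 2 ZBTB7A stress libraries and 3, 2 and 3 GFP stress libraries. The values of the second run rest on ZBTB7A stress 17 alone for the ZBTB7A vector.

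The second comparison asks the same of unstressed mice. In ZBTB7A control against GFP control, all 12 activation members and 21 of 25 homeostatic members were above 0, against 44.7% of all genes, with medians of 0.22 and 0.14. None of the 37 members passed the adjusted threshold in limma (0.0% of genes did), and 0 had an unadjusted p under 0.05, against 1.73% of genes; the smallest unadjusted p of a member was 0.101. Log2 fold changes ran from -0.14 for Slc2a5 to 0.23 for Ptprc among homeostatic members and from 0.03 for Lpl to 0.72 for Itgax among activation members. Without GFP control 11, the low library, the medians turned to -0.02 and -0.01. Without ZBTB7A control 6 or ZBTB7A control 14, which are high, the activation median became 0.06 or 0.02. Without GFP control 10, also high, the medians became 0.49 and 0.23, and 2 members had an unadjusted p under 0.05 (limma), against 380 of 16385 genes. Within the 3 runs of numbers the activation median was 1.03, 0.17 and -0.35. These runs held 1, 2 and 2 ZBTB7A control libraries and 2, 2 and 1 GFP control libraries, so the 1.03 rests on ZBTB7A control 6 alone for the ZBTB7A vector. With array weights, which give libraries far from their group less weight, 4 of 12 activation and 9 of 25 homeostatic members were above 0, with medians of -0.02 and -0.04. With covariates for 3 tissue levels (striatum, olfactory bulb, choroid plexus) the medians were 0.98 and 0.35, and all 12 activation and 24 of 25 homeostatic members were above 0. In that limma fit 12 of 37 members had an unadjusted p under 0.05, against 1360 of 16385 genes, and 0 passed the adjusted threshold. Choroid plexus and ependymal genes were below 0 for 10 of 11 here, 7 of them at an unadjusted p under 0.05 (median -1.43). All 12 striatal and all 10 oligodendrocyte genes were below 0 (-0.37 and -0.29), and 10 of 13 reactive astrocyte genes were above it (0.16). Above 0 as well were 10 of 11 border macrophage genes (0.26, 1 at an unadjusted p under 0.05) and all 6 monocyte and neutrophil genes tested (0.81). The part of these cells was not tested.

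The third comparison asks what stress did under the GFP vector. In GFP stress against GFP control, 1 of 12 activation members (Ch25h) and 4 of 25 homeostatic members were above 0, against 48.4% of all genes, with medians of -0.41 and -0.13. In limma 0 members and 0.0% of genes passed the adjusted threshold, and 2 members had an unadjusted p under 0.05, against 11.2% of genes. Ccl4 averaged 4.16 ± 2.91 normalized counts in GFP stress, against 9.20 ± 3.90 in GFP control (SD, n = 8 and 5). The groups overlapped, and the log2 fold change was -1.09 ± 0.45 (SE, unadjusted p = 0.0235, adjusted p = 0.405). Lpl averaged 345 ± 110 in GFP stress, against 515 ± 125 in GFP control, with overlapping groups and a log2 fold change of -0.61 ± 0.25 (unadjusted p = 0.0232, adjusted p = 0.403). Without GFP control 10 the medians turned to 0.07 and 0.02, and without GFP control 11 they were -0.82 and -0.25. The striatal list was lower here for all 12 genes, 11 of them at an unadjusted p under 0.05, and with the striatal level as a covariate the log2 fold changes of Lpl and Ccl4 were -0.11 and -0.53 and the medians -0.09 and -0.04. With the run of title numbers as a covariate the medians were -0.21 and -0.08, and without the 5 libraries far in striatal level they were 0.06 and -0.0045. Those left out included GFP stress 5, 12, 20 and 21 and no GFP control library. Choroid plexus and ependymal genes (10 of 11 lower at an unadjusted p under 0.05, median -2.45), oligodendrocyte genes (9 of 10, -0.73) and reactive astrocyte genes (2 of 13, all 13 below 0, -0.51) lay below 0 as well. All 11 excitatory neuron genes lay above 0 (0.37). The part of these cells was not tested. Since this comparison shares the GFP stress libraries with the first one, values above 0 there and below 0 here do not support each other.

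The fourth comparison asks what stress did under the ZBTB7A vector. In ZBTB7A stress against ZBTB7A control, 6 of 12 activation members and 4 of 25 homeostatic members were above 0, against 52.5% of all genes, with medians of -0.06 and -0.05. In limma 0 members and 0.0% of genes passed the adjusted threshold, and 1 member had an unadjusted p under 0.05, against 1.66% of genes. That member was Ch25h, with 31.4 ± 22.1 in ZBTB7A stress, against 13.4 ± 3.61 in ZBTB7A control (SD, n = 5 each). The groups overlapped, and its log2 fold change was 1.01 ± 0.39 (SE, unadjusted p = 0.0173, adjusted p = 1.00), or 0.67 without ZBTB7A stress 26. The activation median was -0.32 without ZBTB7A stress 17, and it turned to 0.13 without ZBTB7A stress 26 and to 0.09 without ZBTB7A control 6 or ZBTB7A control 14. All 12 striatal and all 10 oligodendrocyte genes were above 0 in this comparison (medians 0.84 and 0.24), none at an unadjusted p under 0.05. Once the striatal level was a covariate, the medians were -0.21 for activation members (2 of 12 above 0) and -0.10 for homeostatic members (3 of 25). In that limma fit 2 members had an unadjusted p under 0.05, against 195 of 16385 genes, and 0 passed the adjusted threshold.

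The interaction asks whether the stress difference changed with the vector. It was above 0 for 11 of 12 activation members and 18 of 25 homeostatic members, against 52.4% of all genes, with medians of 0.22 and 0.06. In limma 0 members and 0.0% of genes passed the adjusted threshold, and 0 members had an unadjusted p under 0.05, against 7.42% of genes. The smallest unadjusted p was that of Lpl, 0.0561, with a log2 value of 0.75. Without ZBTB7A stress 17 the activation median was 0.01, without GFP control 10 it was -0.14, and without GFP control 11 it was 0.645. With the striatal level as a covariate both medians turned, to -0.16 for activation members (4 of 12 above 0) and -0.06 for homeostatic members (9 of 25). All 12 striatal genes were above 0 in the interaction at an unadjusted p under 0.05 (median 2.145), as were 8 of 11 choroid plexus and ependymal genes (2.002). All 13 reactive astrocyte and all 10 oligodendrocyte genes were above 0 (0.59 and 0.95). The part of these cells was not tested.

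**Figure D4:**
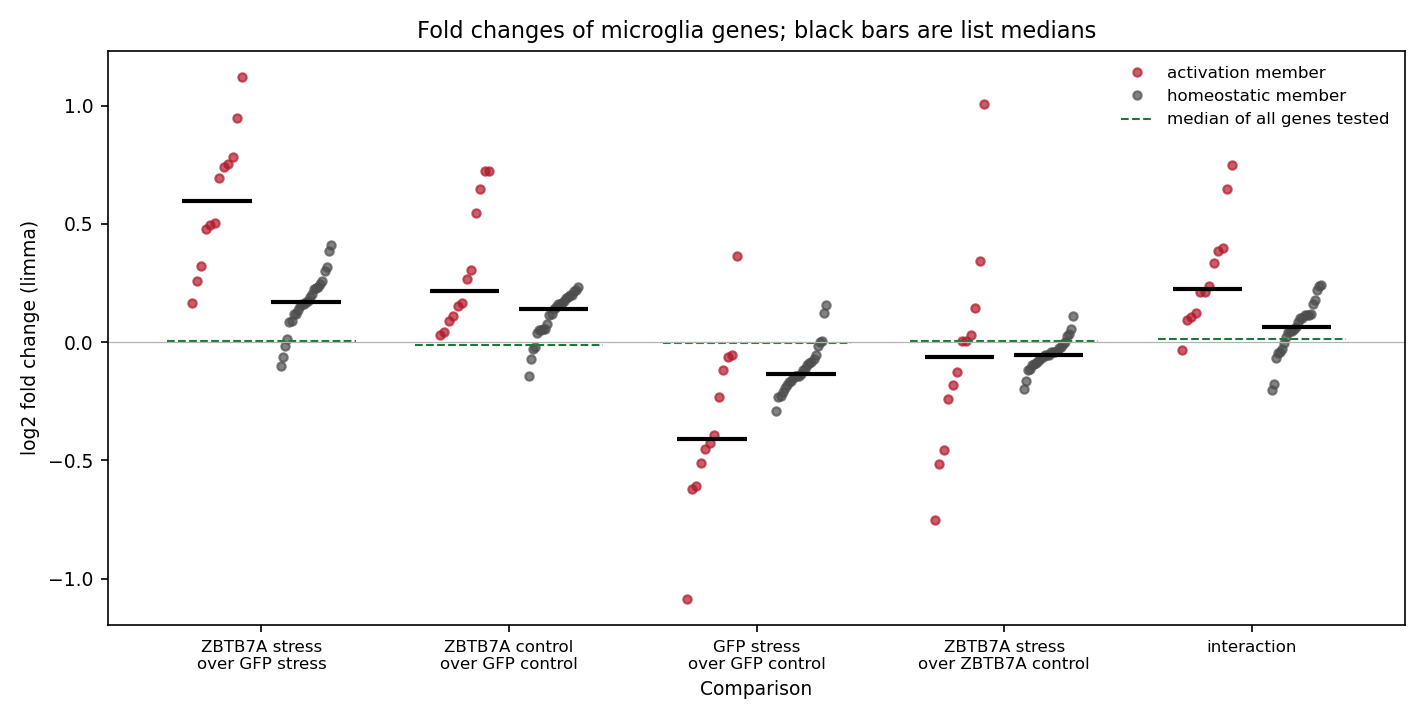
Dots are log2 fold changes of 12 activation members (red) and 25 homeostatic members (grey) in 5 comparisons, black bars are their medians and dashed green lines the median of all 16385 genes tested. Activation members lie above 0 in both ZBTB7A over GFP comparisons and mostly below 0 in GFP stress over GFP control; none passed an adjusted p of 0.05.

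Partner genes and further microglia genes were read from the same fit. Of 23 partner genes, which include ligands, signalling proteins and transcription factors of microglia, 13 were above 0 in ZBTB7A stress against GFP stress (median 0.09) and 17 in ZBTB7A control against GFP control (median 0.08). Of 18 further microglia genes, such as the complement subunits, 17 and 16 were above 0 in these comparisons (medians 0.24 and 0.09), and of 22 further activation genes 19 and 15 were (medians 0.29 and 0.05). In GFP stress against GFP control, 7 of 23, 0 of 18 and 2 of 22 were above 0, with medians of -0.10, -0.18 and -0.21. In ZBTB7A stress against ZBTB7A control, 4 of 23, 4 of 18 and 7 of 22 were above 0. Over all genes tested, the shares above 0 in these 4 comparisons, in the order given, were 51.4%, 44.7%, 48.4% and 52.5%. None of these genes passed an adjusted p of 0.05 in limma.

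The partner and further genes of smallest p in ZBTB7A stress against GFP stress were Tgfa, Pros1, Cd14 and Cd9. Tgfa, a growth factor gene that neurons also transcribe, averaged 1746 ± 469.8 normalized counts in ZBTB7A stress, against 933 ± 419 in GFP stress, with a log2 fold change of 0.99 ± 0.29 (SE, unadjusted p = 0.00249, adjusted p = 0.183, limma). Pros1 averaged 358 ± 35.2, against 295 ± 32.4 in GFP stress (0.28 ± 0.12, unadjusted p = 0.0291, adjusted p = 0.272). Cd14, a coreceptor for bacterial lipopolysaccharide, averaged 103 ± 22.2 in ZBTB7A stress, against 71.0 ± 22.8 in GFP stress, and the tetraspanin gene Cd9 averaged 1231 ± 277, against 843 ± 238 in GFP stress. In GFP stress against GFP control the genes were Cx3cl1, Timp2, Pros1 and Fth1, with log2 fold changes of 0.23, -0.17, -0.28 and -0.30 and adjusted p-values of 0.361 to 0.415. Tgfa was also the one such gene with an unadjusted p under 0.05 in the interaction (log2 value 1.14 ± 0.43, unadjusted p = 0.0148, adjusted p = 0.669).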

How the data were processed

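The deposited values are normalized counts, a signal in which the authors divided whole reads per gene by 1 factor per library, with no correction for gene length. Per the submitters' processing notes, the tools were DESeq2 2.11.40.6, featureCounts 2.0.1 and HISAT2 2.1.0; the notes name mouse builds without a role, so no coordinates are taken from them, and those of promoter windows are RefSeq's. Per the labels' protocols, RNA was polyadenylated and read from bulk tissue. Within 0.02 reads, 100% of a library's values were multiples of what 1 read is worth, so whole reads were recovered, 12.5 to 51.9 M per library. Of 27606 entries, 428 identical repeats were removed.

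Genes with 10 or more in at least 5 of 23 libraries (16385) were tested on log2(normalized count + 1), so fold changes understate those of low genes, with limma 3.58.1 in R 4.3.3 (trended, robust, 1 mean per group, all 23 libraries), two-sided, with Benjamini-Hochberg adjustment over all genes tested. Fitted comparisons and alternatives, including DESeq2 1.42.0 and edgeR 4.0.16 on recovered reads, are given in the closing section. The script was tested on simulated data. Members and lists were chosen with earlier results of these data known. Genes given in every library were a named panel, those given with fold change and p were members under an unadjusted p of 0.05, and exceptions are marked. Promoter windows were matched by symbol for 28 members. Exon lengths are unions of exons in the GENCODE mouse annotation. Correlations used 100000 permutations in Python 3.11.15 with scipy 1.17.1, numpy 2.4.6 and pandas 2.3.3, and figures used matplotlib 3.10.9.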

Additional observations from a re-analysis of the deposited data

Results flagged for a closer look

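Each of 148 combinations of a member and a group was examined for 1 library far from the others of its group, and 11 had one. Chance flags about 1 in 20 groups. In GFP stress 13, which was also high in S100a8, 6 members stood above the other GFP stress libraries: Cx3cr1 at 1894 normalized counts (others 1286 to 1506), Laptm5 at 2088 (923 to 1244), Olfml3 at 558 (372 to 446), Fcgr3 at 447 (248 to 323), Spp1 at 1093 (102 to 309) and Axl at 2162 (1296 to 1551). Laptm5 also stood high in ZBTB7A stress 17 at 2081 (1196 to 1355). Itgam was high in GFP control 10 at 1114 (550.5 to 674), and Gpr34 in ZBTB7A stress 9 at 315 (224 to 239.6). Siglech was low in ZBTB7A control 24 at 368 (430.3 to 458), and Cd86 in GFP stress 21 at 35.8 (50.3 to 67.3).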

How the results depend on the processing

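No paired analysis was possible because the groups share no library number. Members passing an adjusted p of 0.05 stayed at 0 in every comparison and alternative except array weights, which called Lpl in ZBTB7A stress against GFP stress (log2 0.81, adjusted p = 0.0148), in GFP stress against GFP control (-0.89, adjusted p = 0.0375) and in the interaction (1 member each). Array weights called 2287, 668 and 2068 genes there, and DESeq2 46, 39 and 3, and 1 in ZBTB7A stress against ZBTB7A control. A fit of only the groups compared called 2 genes in ZBTB7A stress against GFP stress, and an adjusted p under 0.1 called 1 in the interaction. Leaving out 1 library gave 0 to 3 genes in ZBTB7A stress against GFP stress and 0 to 79 in the interaction (79 without ZBTB7A control 6). With covariates for 3 tissue levels (striatum, olfactory bulb, choroid plexus), the activation median became 0.98 in ZBTB7A control against GFP control; in GFP stress against GFP control the homeostatic and activation medians became 0.29 and 0.79 and Ccl4 turned to 0.21; in the interaction the medians became -0.28 and -1.07. The cause was not tested. An alternative fit kept only genes with a mean of 50 or more, which 33 of the 37 members met. Ch25h, Cst7, Ccl3 and Ccl4 fell below that mean and have no value in it.

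Leaving out 1 library moved the homeostatic and activation medians over -0.01 to 0.23 and -0.02 to 0.49 in ZBTB7A control against GFP control, 0.10 to 0.24 and 0.36 to 0.83 in ZBTB7A stress against GFP stress, -0.25 to 0.02 and -0.82 to 0.07 in GFP stress against GFP control, -0.14 to 0.02 and -0.32 to 0.13 in ZBTB7A stress against ZBTB7A control, and -0.06 to 0.17 and -0.14 to 0.64 in the interaction. Without the 3 libraries high in S100a8, an alternative chosen after seeing the data, the activation medians were 0.36, 0.77, -0.48, -0.26 and 0.14 in the same order.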
